A study of Oryctolagus cuniculus with 17 samples.

Results

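The genes of the elastic fibre were followed in the lungs of preterm rabbit pups kept in hyperoxia or normoxia after birth. The list held 10 genes, chosen for what their proteins do: the elastic core (ELN), the microfibrils around it (FBN1, FBN2, MFAP4, EMILIN1), the fibulins that join core and microfibrils (FBLN5, EFEMP2) and the lysyl oxidases that cross-link elastin (LOX, LOXL1, LOXL2). Of these, 9 were found by their human gene name among the 13827 genes of the count table, and all 9 passed the filter on low counts. EFEMP2 was not analysed here. ELN, FBLN5 and MFAP4 transcripts were lower in hyperoxia on days 5 and 7, with 45.5%, 32.8% and 25.8% of the normoxia mean on day 7, whereas FBN1 did not pass the test on any day.

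Elastic fibres let the lung stretch and recoil. Fibroblasts, smooth muscle cells and other mesenchymal cells secrete tropoelastin, which gathers on a scaffold of fibrillin microfibrils with the help of fibulins and is then cross-linked into an insoluble polymer by copper-dependent lysyl oxidases. In the immature lung, elastin is laid down at the tips of the septa that subdivide the saccules into alveoli, so these genes are studied in bronchopulmonary dysplasia (BPD), in which septation is arrested.

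The pups were New Zealand White rabbits delivered by C-section on gestation day 28 and fed milk replacer, so preterm birth, incubator care and feeding were common to all groups. They were kept in 95% oxygen until postnatal day 3 (HT3, 3 samples), day 5 (HT5, 2 samples) or day 7 (HT7, 3 samples), or in 21% oxygen until the same days (NT3, NT5 and NT7, 3 samples each). RNA came from homogenates of the right lung per the methods of the study, although its results name the left lung. No group was born at term. Whether the samples of a group came from different litters is not given, so the p-values measure the spread between these samples.

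The samples held between 13123731 and 18111086 counts with each locus counted once, and each of the 9 genes had at least 858 counts in every sample, so counting error was small beside the spread between samples. Levels are given as CPM, the count of a gene scaled to a common sample total, with edgeR's TMM factors. A gene passed at an adjusted p-value under 0.01 in edgeR's quasi-likelihood test over 13142 genes, and was a differentially expressed gene (DEG) if its log2 fold change (log2FC, hyperoxia over normoxia) was also above 2 or below -2. Alveolar type 2 marker genes such as the surfactant genes summed to between 11433 and 31091 CPM, in keeping with the label of lung tissue. Skeletal muscle markers stood apart in HT3 replicate 2 (355 CPM) and HT5 replicate 1 (318 CPM), against 45.5 CPM in HT3 replicate 3 and at most 10.9 CPM in the other samples, and heart muscle markers in the same libraries (44.2 and 26.3 CPM) and in NT3 replicate 2 (30.5 CPM), against at most 5.43 CPM elsewhere. Results of days 3 and 5 are also given in part without HT3 replicate 2 and HT5 replicate 1, with single values for some of the genes that moved by over 1.5 times or changed call.

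On day 3, 1 of the 9 genes passed, the locus of EMILIN1, which was lower in hyperoxia, while 0.107% of all genes tested passed as lower and 0.0989% as higher. At an unadjusted p-value under 0.05 in edgeR there were 8 of the 9 on day 3, of which LOX alone was higher, against 15.3% of all genes. On day 5, 4 genes passed (ELN, FBLN5, MFAP4 and the EMILIN1 locus), all lower, against a background of 7.62% lower and 8.56% higher. The day 5 count fell to 2 without HT5 replicate 2 or NT5 replicate 3, and to 0 with only the samples of HT5 and NT5 in the fit, where the 4 had adjusted p-values from 0.0163 to 0.0479 in edgeR. Day 7 had 3 genes that passed (ELN, FBLN5 and MFAP4), again all lower, against 16.9% lower and 16.7% higher. None of the 9 was a DEG on any day in edgeR or DESeq2, which in edgeR 0.0533%, 1.58% and 4.59% of all genes were on days 3, 5 and 7. The median log2FC over the 9 genes was -0.48, -0.74 and -0.50 on the 3 days, and that over all genes was 0.00, -0.02 and -0.01. DESeq2's Wald test, the tool of the study, passed 1, 6 and 4 of the 9 on days 3, 5 and 7, all lower, against 1.64%, 24.4% and 37.4% of all genes in either direction. At an adjusted p-value under 0.05 in edgeR, 7 passed on day 5 and 5 on day 7, against 31.3% and 47.4%. Without HT3 replicate 2 and HT5 replicate 1, an alternative added after seeing the data, 0 of the 9 genes passed on day 3. On day 5, where this fit holds a lone HT5 sample, the calls of FBN2 and the EMILIN1 locus changed. The share over all genes was not computed for this fit.

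**Figure D1:**
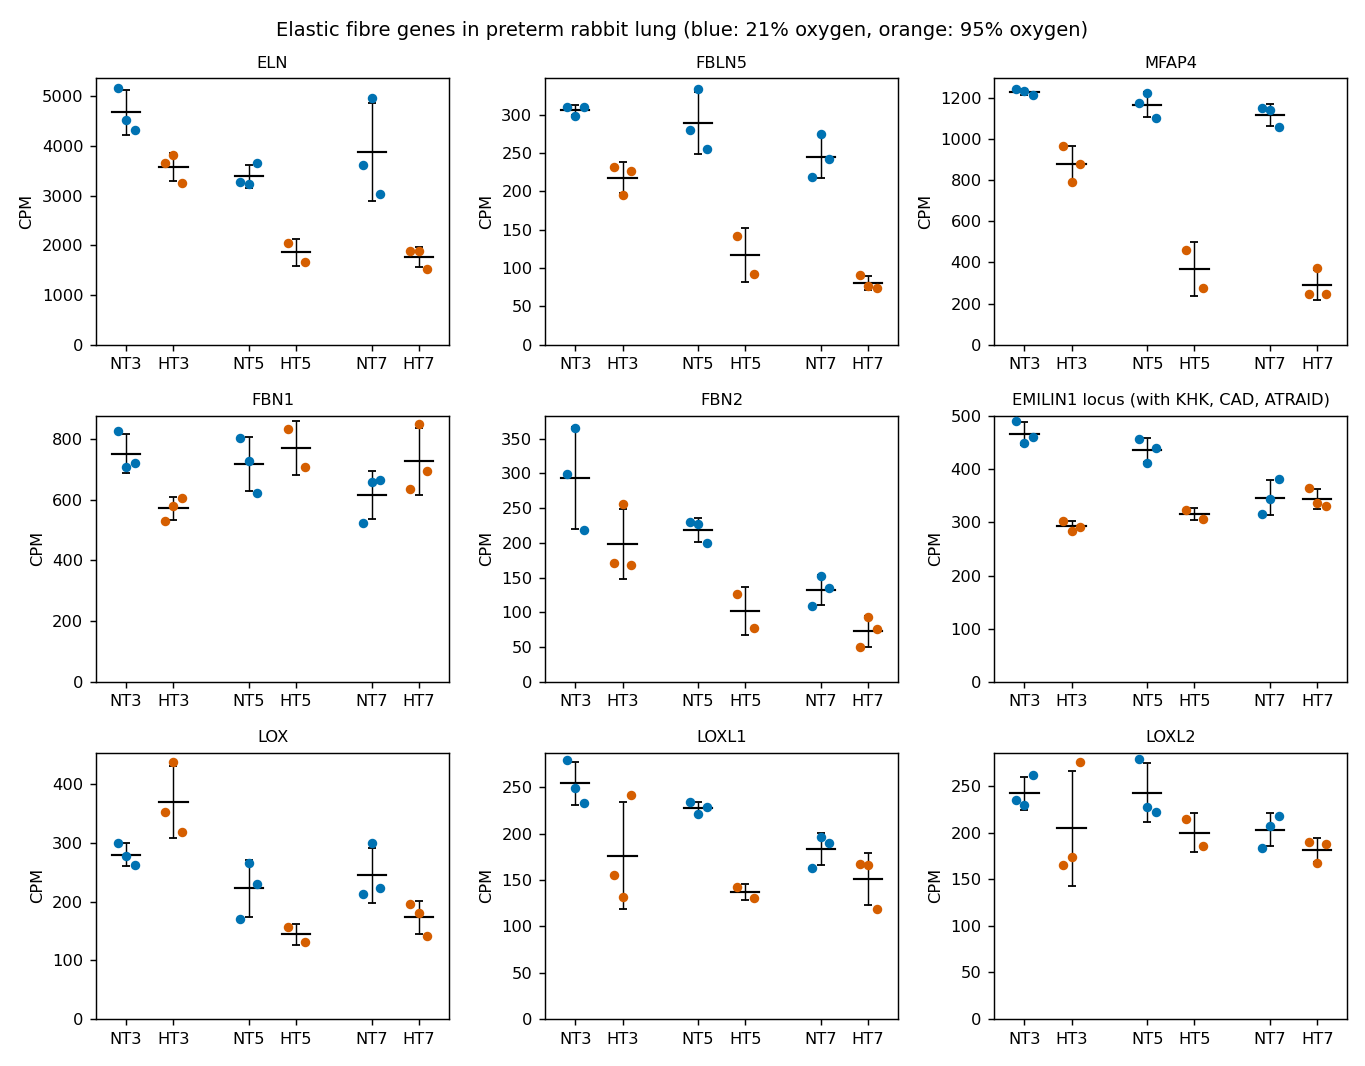
Level of each elastic fibre gene in CPM (vertical axes, from 0) in every sample of the 6 groups, with the group mean (bar) and SD (whiskers). ELN, FBLN5 and MFAP4 lie lower in hyperoxia than in normoxia on each day without overlap, whereas the FBN1 samples of both conditions overlap on days 5 and 7.

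ELN encodes tropoelastin, the soluble precursor of the elastic core (ENSOCUG00000031506, named in the table through its human counterpart, minus strand, OryCun2.0, GL018765:592732-682086). It had 5173, 4524 and 4316 CPM in NT3 and 3662, 3813 and 3255 CPM in HT3. On day 5 the values were 3278, 3228 and 3652 CPM in NT5 and 2053 and 1666 CPM in HT5. On day 7, NT7 had 3618, 4953 and 3037 CPM and HT7 had 1876, 1880.0 and 1521 CPM. Every hyperoxia sample lay below every normoxia sample of its day, and the 5 samples of HT5 and HT7 lay below all 9 normoxia samples, whose lowest value was 3037 CPM.

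In order of their means, the ELN level was 4671 ± 447 CPM in NT3, 3869.5 ± 982 in NT7, 3577 ± 289 in HT3, 3386 ± 232 in NT5, 1859 ± 274 in HT5 and 1759 ± 206 in HT7 (SD, n = 3, and n = 2 in HT5). NT7 overlapped with NT3, HT3 and NT5, and HT5 overlapped with HT7. Of these pairs, NT7 against NT3 did not pass (adjusted p = 0.882 from edgeR), and the others were not tested. The difference between hyperoxia and normoxia did not pass on day 3 (log2FC -0.39, SE 0.16, adjusted p = 0.262 from edgeR). It passed on day 5 (log2FC -0.86, SE 0.18, adjusted p = 0.0032) and on day 7 (log2FC -1.14, SE 0.16, adjusted p = 6.94e-05). The day 5 call was lost without HT5 replicate 2 (adjusted p = 0.0615) and without NT5 replicate 3 (0.0131), while the log2FC stayed at -0.74 and -0.81, and without HT5 replicate 1 the log2FC was -1.02 (0.00496).

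The span of ELN also covers EIF4H, a translation factor gene, and LIMK1, a kinase gene, on the same strand, both counted as loci of their own. Over the 3 days in turn, the log2FC was -0.16, -0.08 and -0.05 for EIF4H (mean 171 CPM) and -0.01, -0.24 and 0.42 for LIMK1 (mean 31.2 CPM). Neither passed on any day, with adjusted p-values of at least 0.0382 from edgeR.

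FBLN5 encodes fibulin 5, an extracellular protein that binds tropoelastin, integrins and lysyl oxidase-like 1 and is needed for elastic fibre assembly (ENSOCUG00000013175, plus strand, OryCun2.0, 20:13959823-14038823). In normoxia it had 309.6, 298 and 310.1 CPM on day 3, 279, 334 and 255 CPM on day 5, and 219, 274 and 242 CPM on day 7. In hyperoxia it had 232, 195 and 227 CPM on day 3, 142 and 91.7 CPM on day 5, and 90.8, 76.0 and 74.2 CPM on day 7. The conditions did not overlap on any day. Across days, HT3 replicates 1 and 3 lay above the lowest normoxia sample, that of 219 CPM in NT7, and all other hyperoxia samples lay below it.

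The fold change of FBLN5 did not pass on day 3 (log2FC -0.49, SE 0.15, adjusted p = 0.139 from edgeR). It passed on day 5, when the mean was 40.4% of normoxia (log2FC -1.31, SE 0.18, adjusted p = 0.000221), and on day 7 (log2FC -1.61, SE 0.16, adjusted p = 3.91e-06). The 2 HT5 samples differed from each other, and the day 5 value was -1.66 without HT5 replicate 1 and -1.04 without HT5 replicate 2, passing in both cases.

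MFAP4, a glycoprotein of the microfibril that binds tropoelastin and fibrillin (ENSOCUG00000015162, plus strand, OryCun2.0, GL018817:320282-322659), had the largest fold change of the 9 genes on days 5 and 7. Its normoxia values lay close together, with 1241, 1232 and 1214 CPM in NT3, 1173, 1225 and 1102 CPM in NT5 and 1152, 1142 and 1056 CPM in NT7. In hyperoxia it had 968, 792 and 878 CPM in HT3, 459 and 276 CPM in HT5 and 246, 373 and 247 CPM in HT7. All 8 hyperoxia samples lay below all 9 normoxia samples, and HT5 and HT7 overlapped.

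The mean of MFAP4 in hyperoxia was 71.6% of normoxia on day 3, 31.5% on day 5 and 25.8% on day 7. The day 3 difference did not pass (log2FC -0.48, SE 0.18, adjusted p = 0.201 from edgeR). Those of day 5 (log2FC -1.67, SE 0.21, adjusted p = 0.000125) and day 7 (log2FC -1.95, SE 0.18, adjusted p = 2.94e-06) passed, the latter just inside -2, the limit for DEGs. MFAP4 was past this limit on day 7 without HT7 replicate 2 (log2FC -2.17, adjusted p = 1.18e-06) and on day 5 without HT5 replicate 1 (-2.08, adjusted p = 4.65e-05). Over the fits that left out 1 sample, its log2FC ran from -2.08 to -1.36 on day 5 and from -2.17 to -1.84 on day 7, passing in all of them.

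**Figure D2:**
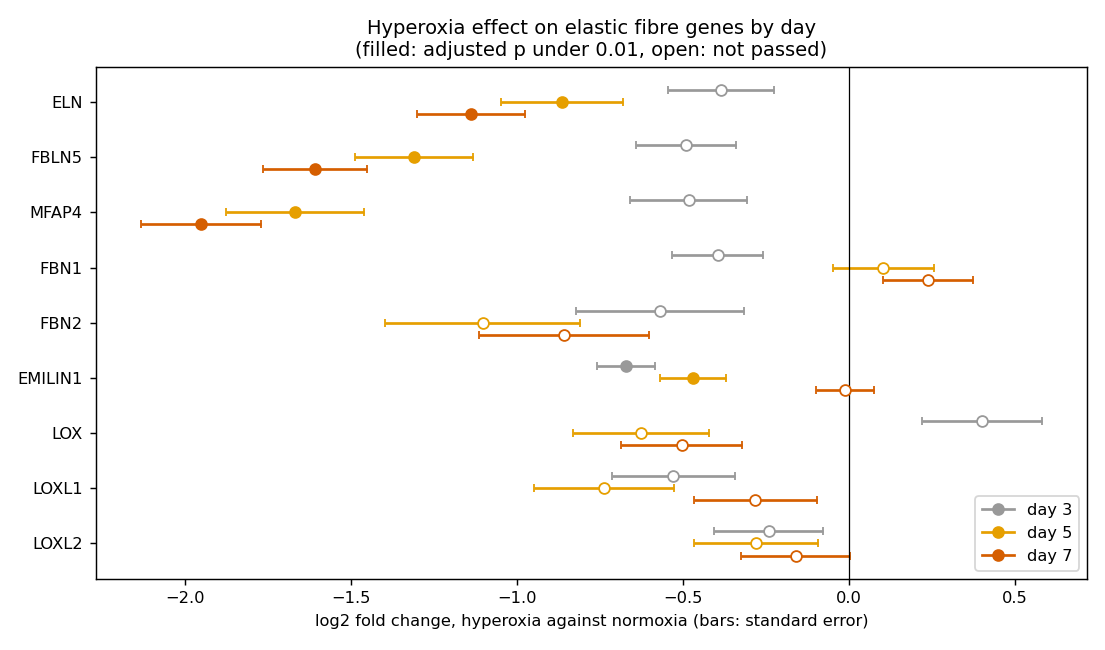
Log2FC of hyperoxia against normoxia (horizontal axis) for the 9 genes on days 3, 5 and 7, with SE (whiskers). Filled points passed at an adjusted p-value under 0.01, and the points of ELN, FBLN5 and MFAP4 lie further to the left on days 5 and 7 than on day 3.

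The fibrillins form the microfibrils on which elastin is deposited. FBN2 is the fibrillin of fetal microfibrils, and FBN1 is the main fibrillin of microfibrils after birth. FBN1 (ENSOCUG00000003866, plus strand, OryCun2.0, 17:23801096-24059362) had 825, 708 and 722 CPM in NT3 against 530.3, 579.7 and 605 CPM in HT3, without overlap. On day 5 it had 803, 726 and 623 CPM in NT5 and 834 and 707 CPM in HT5, and on day 7 it had 523, 657 and 665 CPM in NT7 and 634, 850.4 and 693 CPM in HT7. On these later days the conditions overlapped. Its log2FC was -0.40 on day 3 (SE 0.14), 0.10 on day 5 (SE 0.15) and 0.24 on day 7 (SE 0.14), with adjusted p-values of 0.179, 0.638 and 0.165 from edgeR. The day 5 value was -0.021 without HT5 replicate 1 and 0.20 without HT5 replicate 2, and the day 7 value was 0.12 without HT7 replicate 2 and 0.14 without NT7 replicate 1.

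FBN2 (ENSOCUG00000008226, minus strand, OryCun2.0, 3:11896388-12132314) had 299, 365 and 218 CPM in NT3 and 171, 256 and 168 CPM in HT3, where 1 hyperoxia sample lay within the normoxia range. It had 230.0, 227 and 199 CPM in NT5 and 126 and 77.4 CPM in HT5, and then 109, 152 and 135 CPM in NT7 and 49.5, 93.6 and 75.6 CPM in HT7, without overlap on either day. Its level thus spanned a 3.35-fold range within the 9 normoxia samples alone. The log2FC was -0.57 on day 3 (SE 0.25, adjusted p = 0.298 from edgeR), -1.10 on day 5 (SE 0.29, adjusted p = 0.0113) and -0.86 on day 7 (SE 0.26, adjusted p = 0.0124), none of which passed. Leaving out HT5 replicate 1 brought day 5 to -1.50 with an adjusted p-value of 0.00736, and leaving out HT7 replicate 2 brought day 7 to -1.07 with 0.00529. In the other direction, day 5 was at -0.81 with 0.165 without HT5 replicate 2, and day 7 was at -0.64 with 0.0606 without HT7 replicate 1 and at -0.74 with 0.0514 without NT7 replicate 2. With DESeq2's Wald test, the adjusted p-values were 0.000912 and 0.00263. With the replicate number as a block, both days passed in edgeR (0.00443 and 0.00136), although the numbers were taken to pair samples on day 3 only.

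The ratio of FBN2 to FBN1 within a sample does not depend on the sample's total count. It was 0.393 ± 0.110 in NT3, 0.306 ± 0.0176 in NT5 and 0.214 ± 0.0153 in NT7 (SD, n = 3 each). In hyperoxia it was 0.347 ± 0.0849 in HT3 (SD, n = 3), 0.152 and 0.109 in the HT5 samples, and 0.0990 ± 0.0182 in HT7 (SD, n = 3). The ratio was lower in each HT5 and HT7 sample than in every normoxia sample, whose lowest value was 0.203. The log2 ratio in hyperoxia minus that in normoxia was -0.17 on day 3, -1.25 on day 5 and -1.13 on day 7. Their mean of -0.85 had p = 0.00175 in a 2-sided exact permutation test of the condition within each day (4000 arrangements, smallest possible p 0.00025), or 0.0035 adjusted over the 2 ratios tested. Within the same-numbered pairs of day 3, the log2 ratio was lower in hyperoxia by values close together (-0.17, -0.22 and -0.12). With the condition swapped within these pairs on day 3, an alternative added after seeing the data, p was 0.000625 (1600 arrangements in the exact permutation test, the smallest possible p), or 0.00125 adjusted.

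**Figure D3:**
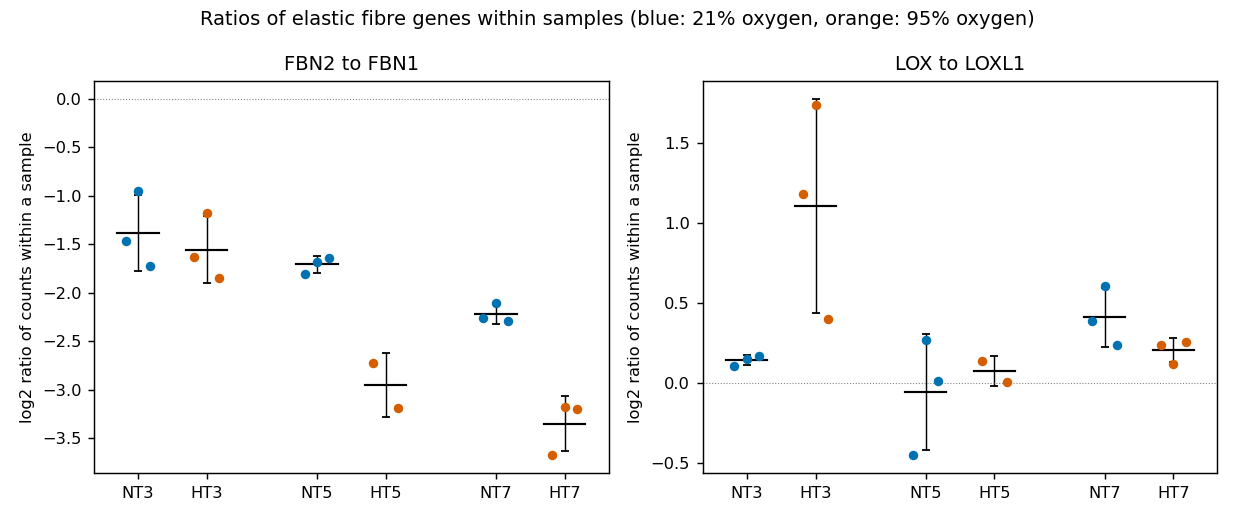
Log2 ratio of FBN2 to FBN1 and of LOX to LOXL1 within each sample (vertical axes) in the 6 groups, with the mean (bar) and SD (whiskers). The FBN2 to FBN1 ratio of HT5 and HT7 lies below that of every normoxia sample, and the LOX to LOXL1 ratio is spread widely in HT3.

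EMILIN1 encodes a glycoprotein found where elastin meets the microfibrils (ENSOCUG00000006872, minus strand, OryCun2.0, 2:158973391-158980409). In the table its locus carries 4 genes with the same counts, the others being KHK (fructokinase), CAD (an enzyme of pyrimidine synthesis) and ATRAID, so that the values below belong to the locus and cannot be assigned to EMILIN1. The locus had 491, 449 and 461 CPM in NT3 and 303, 284 and 292 CPM in HT3. It had 457, 413 and 441 CPM in NT5 and 323 and 307 CPM in HT5, and then 316, 343 and 381 CPM in NT7 and 365, 337 and 330.2 CPM in HT7. The conditions were apart on days 3 and 5 and overlapped on day 7.

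Its log2FC was -0.67 on day 3 (SE 0.088, adjusted p = 0.00177 from edgeR), -0.47 on day 5 (SE 0.099, adjusted p = 0.00308) and -0.01 on day 7 (SE 0.088, adjusted p = 0.925). The day 3 call was lost with the replicate number as a block (adjusted p = 0.0399). It was also lost without HT3 replicate 1 (0.0107) or 2 (0.013) and without NT3 replicate 1 (0.0162), 2 (0.0111) or 3 (0.0156), with log2FC values from -0.70 to -0.63. The day 5 call was lost with the block (0.0271), without HT5 replicate 2 (0.0407) and without NT5 replicate 1 (0.0102) or 3 (0.0111).

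Of the lysyl oxidases, which oxidise lysines of tropoelastin and collagen so that these can cross-link, none passed in the comparisons of hyperoxia with normoxia in edgeR, with 5 of the 9 comparisons at an unadjusted p-value under 0.05 and 1 passing in DESeq2. Of these 5, 2 were on day 3, 2 on day 5 and 1 on day 7, when 15.3%, 43.3% and 53.9% of all genes had such p-values. LOX (ENSOCUG00000003313, minus strand, OryCun2.0, 3:6330229-6342271) had 301, 277 and 263 CPM in NT3 and 353, 438 and 319 CPM in HT3, so that all HT3 samples were the higher ones. The order was the opposite on day 5, with 171, 266 and 231 CPM in NT5 and 157 and 131 CPM in HT5, and on day 7, with 213, 299 and 224 CPM in NT7 and 197, 181 and 142 CPM in HT7. The log2FC was 0.40 on day 3 (SE 0.18, adjusted p = 0.304 from edgeR), -0.63 on day 5 (SE 0.21, adjusted p = 0.0318) and -0.50 on day 7 (SE 0.18, adjusted p = 0.0326). Without HT3 replicate 2, the day 3 value was 0.26 (0.601). The span of LOX holds SRFBP1 on the opposite strand. SRFBP1 was higher in hyperoxia on day 7 (log2FC 0.90, adjusted p = 0.000726), and whether the counting used strand is not given in the sources used here.

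LOXL1, the lysyl oxidase that fibulin 5 brings to elastin (ENSOCUG00000000978, plus strand, OryCun2.0, GL019108:1684-18083), was at 254 ± 23.2 CPM in NT3, 228 ± 6.53 in NT5 and 183 ± 17.4 in NT7 (SD, n = 3 each). In hyperoxia it was at 176 ± 57.8 CPM in HT3, 137 ± 8.61 in HT5 and 151 ± 27.9 in HT7 (SD, n = 3, and n = 2 in HT5). The conditions were apart on day 5 only, when the 2 HT5 samples had 143 and 131 CPM and the lowest NT5 sample 221 CPM. Its log2FC was -0.53 on day 3 (SE 0.19, adjusted p = 0.183 from edgeR), -0.74 on day 5 (SE 0.21, adjusted p = 0.0165) and -0.28 on day 7 (SE 0.19, adjusted p = 0.226). DESeq2's Wald test passed day 5 (adjusted p = 0.00349). The day 3 value was -0.82 without HT3 replicate 3 (0.0231 from edgeR), and the day 7 value was -0.12 without HT7 replicate 3 (0.635).

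LOXL2, which acts mainly on collagen (ENSOCUG00000014596, minus strand, OryCun2.0, GL018937:158194-353404), lay between 183 and 279 CPM in normoxia and between 165 and 276 CPM in hyperoxia. HT3 replicate 3 was the high hyperoxia sample, and the conditions overlapped on days 3 and 7. The log2FC was -0.24, -0.28 and -0.16 on days 3, 5 and 7 (SE 0.17, 0.19 and 0.17), with adjusted p-values of 0.515, 0.266 and 0.446 from edgeR. The day 3 value ran from -0.52 without HT3 replicate 3 to -0.11 without HT3 replicate 1, the day 5 value was -0.17 without NT5 replicate 1, and the day 7 value was -0.095 without HT7 replicate 2. Its span covers RHOBTB2, CHMP7 and R3HCC1 on the opposite strand.

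The ratio of LOX to LOXL1 was 1.10 ± 0.0243 in NT3 and 2.31 ± 1.01 in HT3 (SD, n = 3 each), the HT3 samples ranging from 1.32 to 3.34. On the later days it lay between 0.731 and 1.53 in normoxia, and all 5 hyperoxia samples fell within this range. The log2 ratio in hyperoxia minus that in normoxia was 0.97, 0.13 and -0.21 on days 3, 5 and 7, with a mean of 0.30 (2-sided exact permutation test, p = 0.177, also after adjustment over the 2 ratios). This mean pools days of opposite sign. Within the same-numbered pairs of day 3, the log2 ratio was higher in hyperoxia by 1.07, 1.59 and 0.23. The highest ratio was that of HT3 replicate 2, the sample with the skeletal muscle transcripts, and without it the mean was 0.19.

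Days were also compared within each condition. Between HT3 and HT7, 5 of the 9 passed and all 5 were lower in HT7, against 15.1% of all genes lower and 14.3% higher. They were MFAP4 (log2FC -1.61, SE 0.18, adjusted p = 1.89e-05 from edgeR), FBN2 (-1.44, SE 0.26), FBLN5 (-1.44, SE 0.16), LOX (-1.10, SE 0.18) and ELN (-1.02, SE 0.16). The same 5 genes had log2FC values of -0.14, -1.15, -0.32, -0.19 and -0.27 between NT3 and NT7.

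Between NT3 and NT7, 0 of the 9 genes passed in edgeR, as did 0 of all genes (0.00% lower and 0.00% higher). At an unadjusted p-value under 0.05 there were 3 of the 9 and 824 of all 13142 genes. The 3 were FBN2 (log2FC -1.15, SE 0.26), LOXL1 (-0.47, SE 0.18) and the EMILIN1 locus (-0.43, SE 0.088), and DESeq2 passed 2 of them, FBN2 (adjusted p = 0.00877) and the EMILIN1 locus (0.000724), against 0.118% of all genes. The mean of FBN2 was 294 CPM in NT3, 132 CPM in NT7 and 72.9 CPM in HT7. These comparisons share all their samples with the comparisons of hyperoxia and normoxia on days 3 and 7.

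Whether the effect of hyperoxia itself differed between days was tested as the log2FC of day 7 minus that of day 3. It passed for 3 genes, lower for MFAP4 (-1.47, SE 0.25, adjusted p = 0.00201 from edgeR) and FBLN5 (-1.12, SE 0.22, adjusted p = 0.00387) and higher for the EMILIN1 locus (0.66, SE 0.12, adjusted p = 0.00338). Over all genes, 4.68% passed as lower and 2.59% as higher. With the replicate number as a block, MFAP4 alone passed, FBLN5 being at 0.0147 and the EMILIN1 locus at 0.0151. ELN (-0.75, adjusted p = 0.0310), LOX (-0.91, 0.0232) and FBN1 (0.63, 0.0323) did not pass in edgeR and did in DESeq2 (0.00815, 0.00612 and 0.00994), which passed 15.9% of all genes.

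For day 5 minus day 3, 0 of the 9 genes passed in edgeR and neither did any other gene (0.00% lower and 0.00% higher). At an unadjusted p-value under 0.05 there were 4 of the 9 and 2664 of all genes, and DESeq2 passed MFAP4 (log2 difference -1.18, adjusted p = 0.00132) and 2.42% of all genes. In edgeR, MFAP4 had -1.19 (SE 0.27, adjusted p = 0.0447). Without HT5 replicate 1, calls were gained and not lost, in a fit that holds a lone HT5 sample.

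Across all 17 samples, the 9 genes varied with ELN to different degrees. The correlation of log2 CPM with ELN was 0.925 for MFAP4, 0.914 for FBLN5, 0.824 for FBN2 and 0.780 for LOX, and -0.220 for FBN1 (Pearson, n = 17). By rank (Spearman) these were 0.765, 0.716, 0.784, 0.757 and -0.140 in the same order. FBLN5 and MFAP4 followed each other most closely, at 0.970 (Spearman 0.931). Of all genes tested, those most like ELN were TMEM200B (0.968), PDK2 (0.966), STIMATE-MUSTN1 (0.966), ADD1 (0.965) and LAMC1 (0.961), the last a laminin chain of basement membranes. These values describe samples that share the 6 groups, so they include the differences between groups, and they carry no test.

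The pathway around these genes was read from 4 lists with 60 genes other than the 9, of which 49 were tested. On day 3, 0 of the 49 passed in edgeR or DESeq2, with 16 at an unadjusted p-value under 0.05 in edgeR, where 15.3% of all genes were. On day 5, 9 were lower and 2 higher (18.4% and 4.08%, against 7.62% and 8.56% of all genes), and on day 7, 14 were lower and 8 higher (28.6% and 16.3%, against 16.9% and 16.7%), so that the share of higher genes on day 7 was near that of all genes. The median log2FC was -0.38 and -0.32. The day 5 count rested on few samples, since 1 gene passed without HT5 replicate 2, 7 passed without NT5 replicate 2 or 3, 0 passed with only the samples of HT5 and NT5, and 18 passed in DESeq2. Of the 11 genes, LTBP3 alone passed in all 5 fits that left out 1 sample of HT5 or NT5, and 6 passed without HT3 replicate 2 and HT5 replicate 1. On day 7, 14 of the 22 genes passed in all 6 such fits. Not analysed here were MFAP2, ELANE, PRTN3, CTSG, MMP7, MMP14, CTSL, SERPINA1, SLPI, PI3 and TIMP2.

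Most of the lower genes were partners of microfibrils and elastic fibres, of which 8 of 25 were lower and 1 higher on day 5, and 11 lower and 2 higher on day 7 (median log2FC -0.74 and -0.49). These were 32% lower and 4% higher on day 5, against 7.62% and 8.56% of all genes, and 44% and 8% on day 7, against 16.9% and 16.7%. LTBP4, a latent TGF-beta binding protein that also takes part in elastin deposition with fibulin 5, had a log2FC of -1.35 on day 5 (SE 0.30, adjusted p = 0.00426 from edgeR) and -1.60 on day 7 (SE 0.26, adjusted p = 0.000208). LTBP3, of the same family, had -1.20 (SE 0.17) and -1.50 (SE 0.15). FBLN2 and EFEMP1, which encode fibulins 2 and 3, had -1.79 (SE 0.43) and -1.19 (SE 0.23) on day 5, and FBLN2 had -2.44 on day 7 (SE 0.38, adjusted p = 0.000122), when EFEMP1 did not pass (-0.44, adjusted p = 0.0748). The day 5 call of FBLN2 was lost whichever of the 5 samples was omitted, with log2FC values from -2.08 to -1.56. The day 5 calls of LTBP4 and EFEMP1 were lost without HT5 replicate 2 (adjusted p = 0.0874 and 0.0410), and that of LTBP4 also without NT5 replicate 2. Without HT3 replicate 2 and HT5 replicate 1, LTBP4 was at -1.77 on day 5 and passed.

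ADAMTS17, a secreted protease linked to fibrillin, fell from 145 CPM in NT7 to 25.3 CPM in HT7 (log2FC -2.52, SE 0.26, adjusted p = 5.71e-06 from edgeR), after -1.60 on day 5 (SE 0.29), a call lost without HT5 replicate 2 (adjusted p = 0.0315). ITGA8, an integrin chain of mesenchymal cells, fell from 467 to 76.7 CPM on day 7 (log2FC -2.61, SE 0.40, adjusted p = 0.000114). THSD4, which promotes fibrillin-1 microfibrils, had -1.43 on day 5 (SE 0.29) and did not pass on day 7 (-0.49, adjusted p = 0.111). Its day 5 call was lost without HT5 replicate 2 (0.0444) and without HT3 replicate 2 and HT5 replicate 1 together (0.0122). EMILIN3 had -1.60 on day 7 (SE 0.35) at 0.854 CPM in HT7, a call lost without HT7 replicate 3 (0.0126). Against these, and named after their values were seen, ITGAV, the integrin chain that binds fibrillin and latent TGF-beta, was higher on day 5 (log2FC 0.75, SE 0.18) and day 7 (0.80, SE 0.17), and FBLN1 (fibulin 1) was higher on day 7 (1.33, SE 0.29). The day 5 call of ITGAV was lost whichever of the 5 samples was omitted, and that of FBLN1 without HT7 replicate 1 or NT7 replicate 1.

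Of the 7 cross-linking partners, 0 passed on day 5 in edgeR (3 at an unadjusted p-value under 0.05, as were 43.3% of all genes, and 1 passing in DESeq2), whereas 2 were lower and 1 higher on day 7 (28.6% and 14.3%, against 16.9% and 16.7% of all genes), counts near the background in a list of this size. POSTN, a matricellular protein that aids the activation of lysyl oxidase, was lower (log2FC -1.18, SE 0.26, adjusted p = 0.00164 from edgeR). LOXL4 was higher (log2FC 1.19, SE 0.27, adjusted p = 0.00215). LOXL3, named after its value was seen, was lower (log2FC -0.37, SE 0.10, adjusted p = 0.00871). These calls were lost without HT7 replicate 1 for POSTN (0.0105), without HT7 replicate 3 or NT7 replicate 2 for LOXL4, and for LOXL3 in 5 of the 6 fits that left out 1 sample, all but that without HT7 replicate 1.

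Among the 9 elastases and inhibitors tested, 1 was lower and 1 higher on day 5, and 1 lower and 3 higher on day 7. These were 11.1% in each direction on day 5, near the 7.62% and 8.56% of all genes, and 11.1% lower and 33.3% higher on day 7, against 16.9% and 16.7%. TIMP3, an inhibitor of metalloproteinases that is bound to the matrix, was the lower gene on both days (log2FC -1.08, SE 0.19, and -1.65, SE 0.17, adjusted p = 4.95e-06 from edgeR on day 7). TIMP1, a secreted inhibitor of the same family, rose from 103 to 801 CPM on day 7 (log2FC 2.96, SE 0.47, adjusted p = 0.000166). CTSV, a cathepsin that degrades elastin, was higher on day 5 (1.02, SE 0.22) and day 7 (1.52, SE 0.20). On day 5 the call of TIMP3 was lost without HT5 replicate 2 (adjusted p = 0.0236) and that of CTSV in 4 of 5 fits, all but that without NT5 replicate 1. CTSK, another elastin-degrading cathepsin, shares its locus with ARNT, and that locus was higher on day 7 (1.35, SE 0.23). The elastase genes MMP9 and MMP12 did not pass on day 7 (1.96, SE 0.69, and -0.23, SE 0.78).

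The 8 TGF-beta ligands and targets had 0 genes that passed on day 5 in edgeR (6 at an unadjusted p-value under 0.05, as were 43.3% of all genes, and 1 passing in DESeq2). On day 7, 2 were higher and 0 lower in edgeR (2 higher and 1 lower in DESeq2), which was 25% higher against 16.7% of all genes. Both encode matrix proteins, TGFBI (log2FC 1.46, SE 0.26, adjusted p = 0.000333 from edgeR) and CCN2 (1.38, SE 0.33, adjusted p = 0.00289), whose call was lost without HT7 replicate 1 and without NT7 replicate 2 or 3. The ligands TGFB1, TGFB2 and TGFB3 did not pass on any day.

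**Figure D4:**
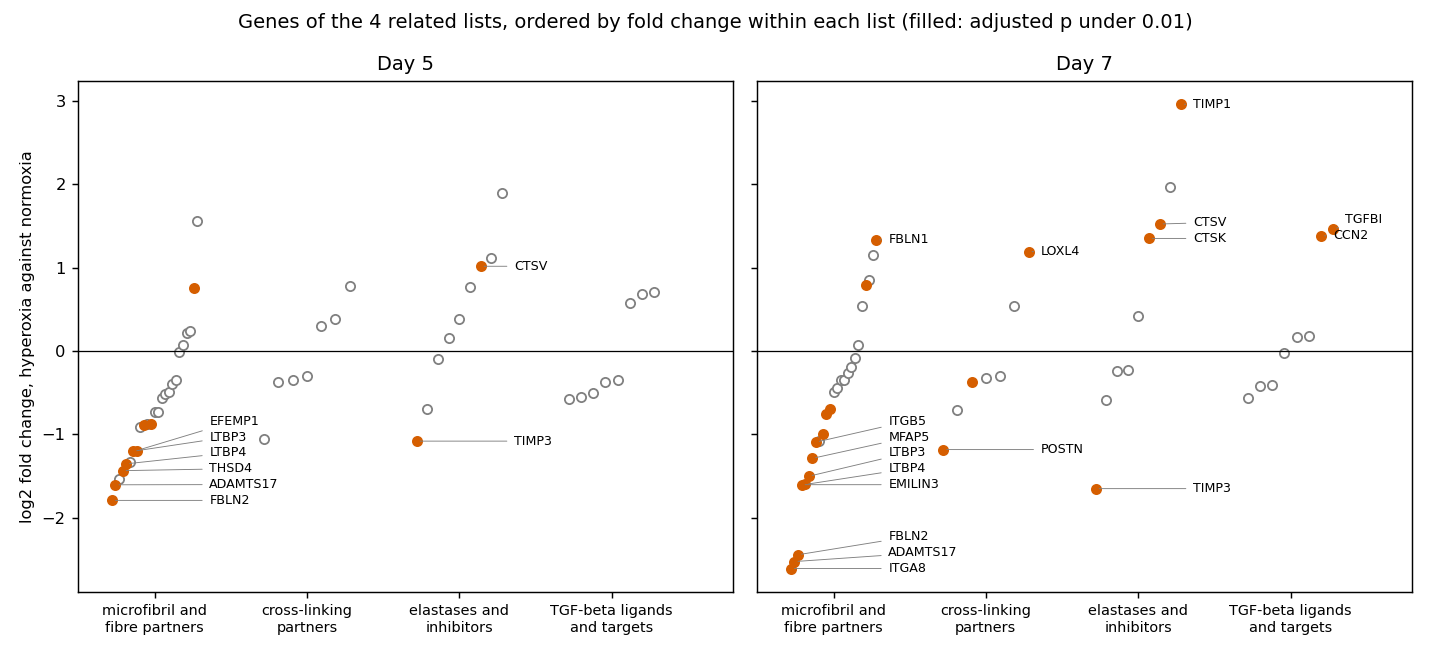
Log2FC of hyperoxia against normoxia (vertical axis) for each tested gene of the 4 related lists on days 5 and 7, with genes ordered by log2FC within a list. Filled points passed at an adjusted p-value under 0.01 and are named where the log2FC is beyond 1 or -1. The partners of microfibrils lie mostly below 0, and the TGF-beta targets that passed on day 7 lie above it.

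In homogenates, fewer cells of a type and less RNA per cell cannot be told apart, so marker genes of the cells that make elastic fibres are set beside the results. Fibroblast markers (8 of 10 tested) summed to 7316 to 8908 CPM in HT3 against 9849 to 12170 CPM in NT3 and to 6234 to 7539 CPM in HT5 against 8417 to 9384 CPM in NT5, without overlap. On day 7 the sums overlapped, at 7409 to 8497 CPM in HT7 and 7998 to 10444 CPM in NT7. Such sums follow the more abundant genes of a list, as COL1A1 here (mean 2526 CPM in NT3, with 55.8 CPM for DCN). On day 5 COL1A2 was lower (log2FC -0.79), and on day 7 TCF21 was lower (-1.56) and LUM higher (1.25), while COL1A1, COL3A1, DCN and DPT did not pass on any day. Nor did PDGFRB, at 0.35 on day 5 and -0.65 on day 7 (adjusted p = 0.0152 from edgeR). For these and the following lists, the shares over all genes were 7.62% lower and 8.56% higher on day 5, and 16.9% lower and 16.7% higher on day 7.

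Smooth muscle and myofibroblast markers (7 of 8 tested) summed to 834 to 927 CPM in HT3 against 981 to 1132 CPM in NT3, to 509 to 571 CPM in HT5 against 856 to 1070.2 CPM in NT5, and to 552 to 838 CPM in HT7 against 772 to 983 CPM in NT7. The sums overlapped on day 7. On day 5, 3 were lower (TAGLN, MYH11 and LMOD1, with log2FC -1.78, -1.48 and -1.08), and on day 7, 3 were lower (MYH11, LMOD1 at -0.99 and MYOCD at -0.73). ACTA2, TAGLN and ACTG2 were at -0.01, -0.29 and 0.27 on day 7 and did not pass. DES lay the other way on days 3, 5 and 7 (log2FC 0.69, 0.80 and 0.75). It did not pass (adjusted p = 0.173, 0.0302 and 0.0173 from edgeR).

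Endothelial markers (6 of 8 tested) summed to 862 to 1232 CPM in HT7 against 2179 to 2561 CPM in NT7 and to 1180 to 1231 CPM in HT5 against 1982 to 2474 CPM in NT5, and overlapped on day 3, with 4 lower on each of days 5 and 7 and VWF higher on day 5, and the endothelial gene TIE1 was lower already on day 3. Mesothelial markers (4 of 5 tested) summed to 10.6 to 38.7 CPM in HT7 against 76.6 to 168 CPM in NT7. On day 5 they summed to 17.4 to 48.7 CPM in HT5 against 78.3 to 157 CPM in NT5. Of this list UPK3B alone passed, lower on day 7 (log2FC -3.10). WT1, CALB2 and LRRN4 were at 0.56, 2.92 and 0.50 on day 7 and did not pass, and the list median was 0.53. Cartilage markers (5 of 6 tested) summed to 11.4 to 18.6 CPM in HT7 against 20.2 to 33.8 CPM in NT7, the conditions also lying apart on days 3 and 5. CNMD was lower on days 5 and 7, MATN3 lower on day 7 and ACAN higher on day 7. Of the 13 marker genes that passed on day 5, over all lists, CDH5 and TIE1 passed in all 5 fits that left out 1 sample, and 10 passed without HT3 replicate 2 and HT5 replicate 1, where TAGLN (log2FC -1.36, adjusted p = 0.0228), LMOD1 (-0.80, 0.0282) and VWF (1.21, 0.0199) did not. Of the 19 on day 7, 15 passed in all 6 such fits, and ACAN, LUM, MARCO and MYOCD did not. The day 3 call of TIE1 was lost without HT3 replicate 2 and HT5 replicate 1 (adjusted p = 0.0271 from edgeR) and in 5 of the 6 fits, all but that without HT3 replicate 3. The part of these cell types in the lower ELN, FBLN5 and MFAP4 levels was not tested.

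**Figure D5:**
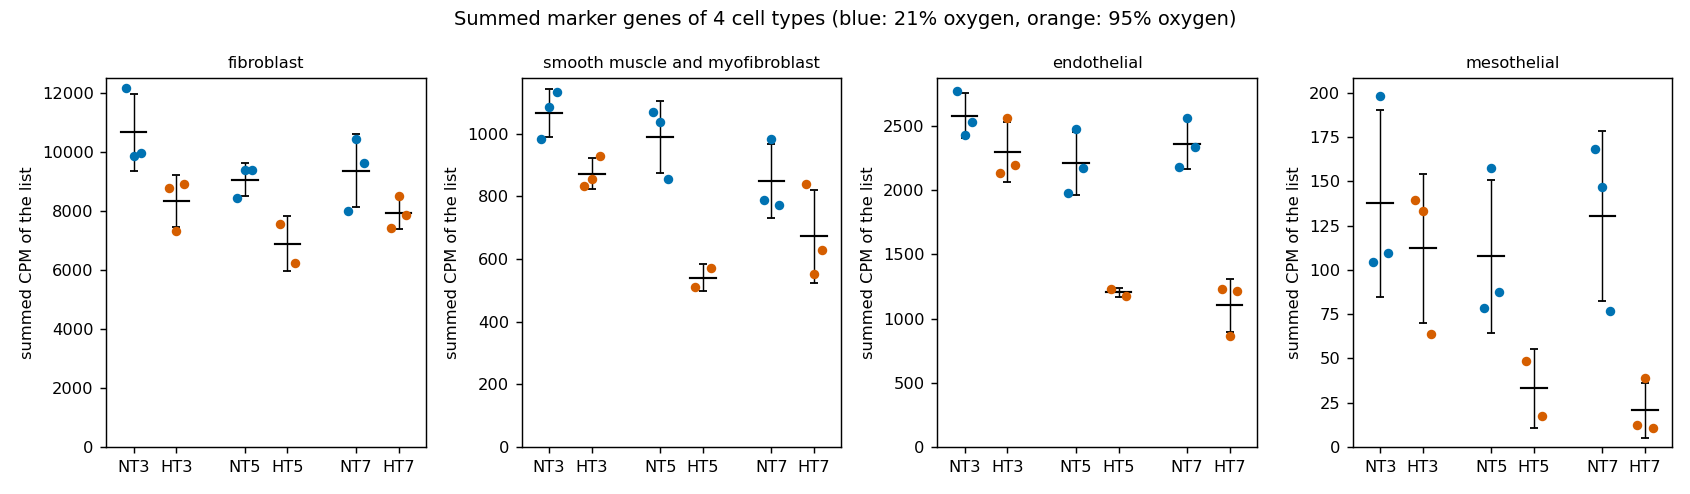
Summed CPM of the tested marker genes (vertical axes, from 0) of fibroblasts, smooth muscle cells and myofibroblasts, endothelial cells and mesothelial cells in every sample, with the group mean (bar) and SD (whiskers). The fibroblast sums of HT3 and HT5 lie below those of NT3 and NT5 and overlap with normoxia on day 7, whereas the endothelial and mesothelial sums of HT7 lie below those of NT7. Of the mesothelial markers, UPK3B was lower on day 7, while WT1, CALB2 and LRRN4 had positive log2FC values and did not pass.

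Of the other marker lists, 3 of 5 alveolar type 1 markers (AGER, RTKN2 and CLIC5) were lower on day 7 and 2 of them (AGER and CLIC5) on day 5, against 16.9% and 7.62% of all genes. HOPX and PDPN did not pass, with log2FC values of -0.01 and 0.16 on day 5 and 0.35 and 0.15 on day 7. The alveolar type 1 sum was 1652 to 2178 CPM in HT7 against 4777 to 6048 CPM in NT7 and 1786 to 2958 CPM in HT5 against 4301 to 5046 CPM in NT5. Of 6 macrophage markers, CD68 was higher on days 5 and 7 and MARCO lower on day 7, and their sum was higher without overlap on day 5 (1602 to 1638 CPM in HT5, 826 to 1452 in NT5) and day 7 (1662 to 2299 CPM in HT7, 1077 to 1269 in NT7). The median log2FC over these 6 genes was, however, -0.29 on day 5 and -0.38 on day 7. MRC1, C1QA and C1QB were at -0.83, -0.46 and -0.30 on day 7 and CSF1R at 0.31, and none of these passed. Of 3 erythroid markers ALAS2 was lower on day 7, and their sum was lower without overlap on day 5 (67.0 to 78.2 CPM in HT5, 94.4 to 173 in NT5) and day 7 (47.3 to 67.1 CPM in HT7, 118 to 202 in NT7). The alveolar type 2 sum was higher without overlap on day 3 (23126 to 26245 CPM in HT3, 16118 to 18842 in NT3) and overlapped on days 5 and 7, and 0 of its 5 genes passed on any day. The ciliated sum was lower without overlap on day 5 (56.9 to 71.5 CPM in HT5, 81.2 to 100.4 in NT5). The median log2FC on day 7 was -0.24 for markers of alveolar type 2 cells, -0.33 for those of ciliated cells, 0.90 for neutrophils, -0.22 for heart muscle and -0.42 for skeletal muscle. The neutrophil sum ran from 895 to 1254 CPM in HT3 against 259 to 617 CPM in NT3, and overlapped on day 5 (575 to 837 CPM in HT5, 139 to 603 in NT5) and day 7 (861 to 2750 CPM in HT7, 796 to 965 in NT7), when HT7 replicate 1 had the 2750 CPM.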

How the data were processed

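Lung RNA of 17 samples was measured as stranded, paired-end poly(A) libraries. The authors mapped reads with STAR 2.7.10a to OryCun2.0, per the labels, and the values they deposited are raw counts of reads per locus, not normalized. The counting program and its strand setting are not given in the sources used here. The table holds 13313 loci. Genes that share a locus have the same counts (514 such entries beyond the first of each locus), and 44 entries have no gene name.

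Counts were tested with edgeR 4.0.16 in R 4.3.3 (filterByExpr, TMM factors from 0.958 to 1.05, quasi-likelihood test, 1 model with 6 group means, prior count 0.125 for fold changes), with Benjamini-Hochberg adjustment over 13142 genes. HT5 has 2 samples and takes its spread from all groups. SE is the log2FC divided by the root of F. Ratios of 2 genes used log2 CPM with a prior count of 2 and exact permutations within days. CPM are not divided by transcript length, so levels are not compared between genes. Reference sequences were not used here.

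The members and gene lists were chosen with earlier results of these data known. Named were all members, the genes of the related lists that passed with a log2FC beyond 1 or -1 (up to 6 per list and day; 1 listed gene is not reported here), and the 5 genes most correlated with ELN. Alternatives were DESeq2 1.42.0, other normalizations, no count filter, other sample sets, 1 entry per locus, an adjusted p-value of 0.05, a replicate block and leaving out samples. Leaving out HT3 replicate 2 and HT5 replicate 1 together, leaving out samples for related and marker genes, and permuting ratios within pairs were added after seeing the data. Scripts were tested on simulated counts.

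Deviations of same-numbered samples from their group means correlated at 0.166, 0.131 and 0.199 on day 3, at 0.264 and 0.141 on day 5, and at 0.174, 0.109 and 0.0695 on day 7. All pairs of a day with 3 pairs passed 0.1 only on day 3, so the replicate number was taken to pair samples there. Day 5 was not taken as paired because HT5 has 2 samples. Differently numbered samples were not compared in this way, so pairing was not tested on any day. What the numbers stand for is not given in the labels.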

Additional observations from a re-analysis of the deposited data

Results flagged for a closer look

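The effect of hyperoxia differed between days 3 and 7 for 3 genes by a test of the difference itself in edgeR. With the replicate number as a block, MFAP4 passed (adjusted p = 0.00653), whereas FBLN5 (0.0147) and the EMILIN1 locus (0.0151) did not. For MFAP4 the log2FC of day 7 minus that of day 3 was -1.47 (adjusted p = 0.00201), which held in all 12 fits that left out 1 sample (adjusted p up to 0.00702). For FBLN5 the difference was -1.12 (adjusted p = 0.00387), and the call was lost in 6 of the 12 fits, those without HT3 replicate 1 (0.0107), HT7 replicate 3 (0.0131), NT3 replicate 1 (0.0106), 2 (0.0114) or 3 (0.0111) and NT7 replicate 2 (0.0133). For the EMILIN1 locus, shared with KHK, CAD and ATRAID, it was 0.66 (adjusted p = 0.00338), and the call was lost without HT3 replicate 2 (0.01), NT3 replicate 1 (0.0113) and NT7 replicate 2 (0.0114). Between NT3 and NT7 the locus had a log2FC of -0.43 (adjusted p = 0.310 in edgeR and 0.000724 in DESeq2), and between HT3 and HT7 one of 0.23 (0.0447 in edgeR).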

How the results depend on the processing

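Of the fold changes of single members over days and settings other than leaving out 1 sample, 248 kept direction and side of the threshold, 11 lost the call, 9 gained it and 2 turned sign. The 2 were FBN1 on day 5 (-0.021) and LOXL2 for day 7 minus day 3 (-0.026), both without HT3 replicate 2 and HT5 replicate 1, where members passing were 0 on day 3 and 2 for day 5 minus day 3. DESeq2 passed 2 members between NT3 and NT7 (0.118% of all genes), 6 for day 7 minus day 3 (15.9%) and 1 for day 5 minus day 3 (2.42%). It passed 18 related genes on day 5 (11 in edgeR), against 24.4% of all genes. With only the samples of the 2 groups compared, 0 members passed on days 3 and 5 and 0 related genes on day 5, when ELN, FBLN5, EMILIN1 and MFAP4 had adjusted p-values from 0.0163 to 0.0479. At an adjusted p-value under 0.05, 7 members and 23 related genes passed on day 5 (31.3% of all genes). At that threshold 5 members passed on day 7 (47.4%), 6 for day 7 minus day 3 (20.5%) and 1 for day 5 minus day 3 (1.46%). With the replicate block, 0 members passed on day 3 and 1 for day 7 minus day 3, and FBN2 passed on day 5 (0.00443) and day 7 (0.00136). Among members, in the comparisons of hyperoxia with normoxia and their differences between days, the block changed no other call than these, those of the EMILIN1 locus and that of FBLN5 given above. No blocked fit was made for HT7 against HT3 or NT7 against NT3, since the block was the replicate number within a day. With the condition swapped within pairs on day 3, the adjusted p-value was 0.00125 for the ratio of FBN2 to FBN1 and 0.25 for that of LOX to LOXL1 (exact permutation tests). The numbers were taken to pair samples on day 3 only, which was not tested, and elsewhere they are shared numbers.

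With each sample left out in turn, members passing ranged from 0 to 1 on day 3, 2 to 5 on day 5 (2 without HT5 replicate 2 or NT5 replicate 3), 3 to 4 on day 7, 5 to 5 between HT3 and HT7, 0 to 0 between NT3 and NT7, 1 to 3 for day 7 minus day 3 and 0 to 2 for day 5 minus day 3. Related genes ranged from 0 to 0 on day 3, 1 to 12 on day 5 (1 without HT5 replicate 2, 7 without NT5 replicate 2 or 3) and 18 to 23 on day 7. FBN1 on day 5 ran from -0.021 to 0.20, EMILIN1 on day 7 from -0.075 to 0.063 and LOXL2 for day 7 minus day 3 from -0.051 to 0.36. The ratio of FBN2 to FBN1 stayed between -0.93 and -0.77, and that of LOX to LOXL1 between 0.19 and 0.41. The cause of these changes was not tested, beyond the smaller number of samples in such fits. HT5 has 2 samples, so a fit that leaves out 1 of them rests on a lone sample, assumed to vary like the other groups.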
